A study of Mus musculus with 2 samples.

Results

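The genes described here encode subunits of voltage-gated calcium channels, together with Rrad, a small GTPase that restrains these channels. They were chosen by gene symbol: the pore-forming genes Cacna1c, Cacna1d, Cacna1g, Cacna1h and Cacna1s, the auxiliary genes Cacnb2, Cacnb3, Cacna2d1 and Cacna2d3, and Rrad. All 10 were found among the 55536 genes of the deposited gene table. The RNA came from hearts of male B6CASTF1/J mice, a first-generation hybrid strain, aged 18 to 20 months. The study held 1 group of 2 libraries of total RNA, labelled biological replicates 2 and 1, each made from 300 ng RNA with stranded, ribosomal RNA-reduced chemistry and ERCC spike-ins. No younger, treated or other control group was analysed here. Both libraries carried the same donor identifier and different biosample identifiers, so the spread between them may be partly technical.

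A voltage-gated calcium channel opens when the cell membrane depolarises and lets calcium into the cell. Its alpha1 subunit forms the pore and senses voltage. The intracellular beta subunits and the extracellular alpha2delta subunits bring the pore to the membrane and tune its gating. In heart muscle the long-lasting (L-type) current through the product of Cacna1c starts the calcium release that drives contraction, and the transient (T-type) channels of Cacna1g and Cacna1h are best known from pacemaker and conducting cells. Rrad belongs to the RGK family of GTPases, which bind beta subunits and lower the L-type current. In mouse heart cells, phosphorylation of the Rrad protein by protein kinase A releases this restraint during adrenergic stimulation.

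Depth was similar, with 37447840 expected counts for replicate 2 and 39053830 for replicate 1. Expected counts are reads shared out among the genes and transcripts they fit. Mitochondrial transcripts took 34.4% of the counts in replicate 2 and 29.3% in replicate 1. Markers of heart muscle (Myl2, Myh6, Tnni3, Actc1 and Ttn) summed to 23791 TPM in replicate 2 and 29098 TPM in replicate 1, so the markers of the labelled tissue were abundant. Most of these are not specific to the ventricle, so the sum does not separate the chambers. TPM is a level scaled for transcript length, which sums to the same total in each library. Atrial muscle markers summed to 820 TPM in replicate 2 and 1377 TPM in replicate 1, and 5 white adipocyte markers to 6.22 TPM in replicate 2 and 32.2 TPM in replicate 1. Pacemaker and conduction markers summed to 10.5 TPM in replicate 2 and 11.0 TPM in replicate 1. In whole tissue, fewer cells of a type and less RNA per cell cannot be told apart.

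Cacna1c and Rrad led the group, followed by Cacna2d1, Cacnb2, Cacna1s, Cacna1g, Cacna1h, Cacnb3, Cacna1d and Cacna2d3 by mean TPM. These levels count all transcripts of a gene, also those annotated as non-coding, which weigh more in some genes than in others. Among 22015 protein-coding genes of the nuclear chromosomes, Cacna1c ranked 703, Rrad 836, Cacna2d1 1632 and Cacnb2 1924, whereas Cacna1s ranked 6339. Neighbours in this order held non-overlapping values in the 2 libraries except for 2 pairs, Cacna1c with Rrad and Cacna1g with Cacna1h. The second deposited quantification, made from the reads rather than from alignments, overlapped at the same 2 places. Between the tables, 7 of the 7 genes with an average of 1 TPM or more had levels within 1.5-fold and 0 were 2-fold apart, against 85.2% and 6.06% of all such genes, and the ratios ran from 0.774 for Cacna1c to 1.43 for Cacna1h. Cacnb3, Cacna1d and Cacna2d3 averaged under 1 TPM and were kept out of the ratios between libraries, which leaves 7 of the 10 genes there.

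**Figure D1:**
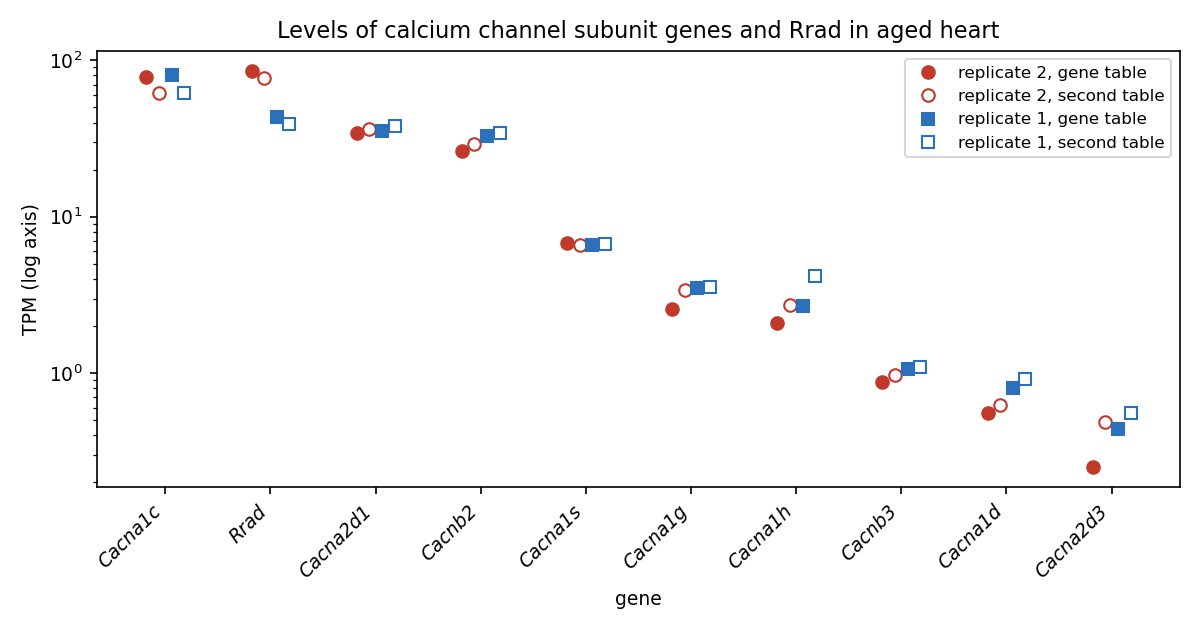
TPM of each gene on a log axis, with replicate 2 as circles and replicate 1 as squares, filled for the gene table and open for the second table. The widest gap between libraries in TPM is that of Rrad, at 86.0 TPM in replicate 2 and 43.5 TPM in replicate 1.

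Among all pore-forming genes, L-type transcripts dominated: the 4 L-type genes held 93.5% of alpha1 TPM in replicate 2 and 92.4% in replicate 1 (93.0% ± 0.728, SD, n = 2). Cacna1c alone held 85.4% in replicate 2 and 84.7% in replicate 1. The T-type genes held 5.34% in replicate 2 and 6.51% in replicate 1. In the second table the L-type share was 90.2% in replicate 2 and 88.9% in replicate 1, outside the spread of the first.

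Cacna1c (mm10 chr6:118587240-119196418, minus strand), which encodes the main L-type pore of heart muscle, was at 78.0 TPM in replicate 2 and 80.9 TPM in replicate 1 (79.4 ± 2.00, SD, n = 2). The library values were almost level. The counts behind them were 12871 in replicate 2 and 13382 in replicate 1. The annotation gives the gene 27 transcripts, of which 22 are coding. In the annotation they start at several first exons, and the annotated start of coding differs with them. The distal first exon and the proximal first exon lie 87.52 kb apart. Known from work on mammalian channels, the distal one encodes the longer amino terminus typical of heart and the proximal one the shorter amino terminus found in smooth muscle and brain. The coding parts of both exons are shown because their use is compared next, from the GENCODE M21 transcripts (the reference sequence, not that of the hybrid animals), with the start codon in capitals.
Cacna1c distal first coding exon, chr6:119196093-119196231, minus strand: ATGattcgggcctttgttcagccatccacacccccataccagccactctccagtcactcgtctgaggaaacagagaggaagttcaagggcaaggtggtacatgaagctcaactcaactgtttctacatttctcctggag
Cacna1c proximal first coding exon, chr6:119107927-119107975, minus strand: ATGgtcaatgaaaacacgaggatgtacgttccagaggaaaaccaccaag

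The distal exon dominated. Transcripts that start there held 77.7% of the coding Cacna1c TPM in replicate 2 and 79.2% in replicate 1 (78.4% ± 1.09, SD, n = 2). The 12 coding transcripts that start at the proximal exon held 6.08% in replicate 2 and 4.57% in replicate 1. The second table gave the same order with a smaller gap, at 62.0% distal and 12.2% proximal in replicate 2 and 60.3% distal and 10.9% proximal in replicate 1. Transcripts annotated from a further first exon inside the gene (chr6:118780185-118780324) held 15.5% of coding TPM in replicate 2 and 14.4% in replicate 1. In the second table they held 23.5% in replicate 2 and 26.0% in replicate 1. These transcripts lack the amino-terminal exons altogether in the annotation. Whether RNA starts at that exon or these models are incomplete was not tested. The distal and proximal shares are of a total that includes them.

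The stretches of DNA in front of the 2 first exons differ in composition. They are printed here because the transcripts that follow them differ so much in share, as RefSeq gives them for GRCm38.p6 and only up to the outermost annotated start. The motifs TATAAA of many core promoters, GGGCGG of Sp factors, AGATAA of GATA factors and CACGTG of E-box factors were searched on both strands, and capitals mark any match to these 4.
Cacna1c distal promoter, chr6:119196419-119196659, minus strand: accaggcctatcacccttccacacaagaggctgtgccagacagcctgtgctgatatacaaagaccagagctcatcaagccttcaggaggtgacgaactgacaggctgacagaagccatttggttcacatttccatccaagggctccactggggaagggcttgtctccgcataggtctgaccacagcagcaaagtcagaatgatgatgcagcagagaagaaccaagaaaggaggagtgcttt
Cacna1c proximal promoter, chr6:119108574-119108745, minus strand: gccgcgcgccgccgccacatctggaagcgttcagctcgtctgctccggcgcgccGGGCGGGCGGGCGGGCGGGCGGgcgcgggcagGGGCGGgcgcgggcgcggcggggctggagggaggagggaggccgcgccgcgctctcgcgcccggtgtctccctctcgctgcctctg

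None of the 4 motifs is in the distal window of 241 bases, where TATAAA occurs in 12.1%, GGGCGG in 31.4%, AGATAA in 9.77% and CACGTG in 5.73% of 32851 RefSeq promoter windows of that length. The proximal window of 172 bases holds 6 GGGCGG matches, all but 1 of them overlapping in one run, and none of the other motifs. GGGCGG was found in 19.8% of promoter windows of 172 bases, TATAAA in 8.13%, AGATAA in 7.42% and CACGTG in 3.43%. All windows were counted from 250 bases upstream of the RefSeq start, so those of 172 bases stop short of that start. The Cacna1c windows end at the outermost annotated start, which the compared windows need not reach. The proximal window has a GC content of 83.1% and 32 CpG dinucleotides, against a median of 3 CpG in windows of its length. The distal window has a GC content of 51.9% and 2 CpG, against a median of 5. The less used start has the CpG-dense window. Promoter sequences were found for 7 of the 10 genes.

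Inside Cacna1c the annotation has 3 pairs of neighbouring exons of equal length. Each pair encodes alternative versions of a membrane-spanning helix. In background knowledge of the channel, the 104-base pair encodes the last helix of the first repeat, the 60-base pair a voltage-sensor helix of the third repeat and the 84-base pair a voltage-sensor helix of the fourth. All 22 coding transcripts carry exactly 1 exon of the 104-base pair, and 19 of 22 carry exactly 1 exon of each other pair. The exons of the 104-base pair are identical at 72 of 104 bases (69.2%), those of the 60-base pair at 35 of 60 and those of the 84-base pair at 49 of 84 (58.3% each). The sequences show which bases differ within each pair, in capitals.
Cacna1c 104-base exon, upstream, chr6:118742265-118742368, minus strand: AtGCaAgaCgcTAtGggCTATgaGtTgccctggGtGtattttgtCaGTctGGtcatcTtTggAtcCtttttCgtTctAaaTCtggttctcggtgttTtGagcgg
Cacna1c 104-base exon, downstream, chr6:118741871-118741974, minus strand: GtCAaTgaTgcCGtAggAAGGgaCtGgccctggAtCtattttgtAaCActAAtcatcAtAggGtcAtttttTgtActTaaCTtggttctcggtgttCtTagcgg
Cacna1c 60-base exon, upstream, chr6:118674555-118674614, minus strand: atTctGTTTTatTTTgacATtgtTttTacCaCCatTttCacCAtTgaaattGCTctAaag
Cacna1c 60-base exon, downstream, chr6:118674346-118674405, minus strand: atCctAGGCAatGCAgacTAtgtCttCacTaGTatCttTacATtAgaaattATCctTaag
Cacna1c 84-base exon, upstream, chr6:118638427-118638510, minus strand: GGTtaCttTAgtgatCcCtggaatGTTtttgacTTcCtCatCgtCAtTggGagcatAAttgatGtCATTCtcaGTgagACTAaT
Cacna1c 84-base exon, downstream, chr6:118637730-118637813, minus strand: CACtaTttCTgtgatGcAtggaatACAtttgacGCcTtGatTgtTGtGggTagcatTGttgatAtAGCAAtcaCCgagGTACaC

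Use of the 104-base pair was one-sided. The upstream exon was in 91.5% of coding TPM in replicate 2 and 93.8% in replicate 1, and the downstream exon in 8.50% in replicate 2 and 6.19% in replicate 1. The second table put the upstream exon at 89.4% in replicate 2 and 92.2% in replicate 1, so all 4 values were near 90% or above.

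The other pairs were mixed. The upstream 60-base exon was in 57.2% of coding TPM in replicate 2 and 57.7% in replicate 1, and the downstream one in 42.6% in replicate 2 and 43.1% in replicate 1. Shares of expected counts reversed that order, with the upstream exon at 46.5% in replicate 2 and 46.2% in replicate 1. Which exon of the 60-base pair leads therefore depended on the measure. The upstream 84-base exon was in 47.3% of coding TPM in replicate 2 and 50.3% in replicate 1, and the downstream one in 53.2% in replicate 2 and 50.6% in replicate 1. By expected counts the upstream 84-base exon led, with 55.5% in replicate 2 and 58.5% in replicate 1.

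A pair of optional exons was used unequally. The 75-base exon, which lengthens the loop between the first and second repeats, was in 27.2% of coding TPM in replicate 2 and 25.9% in replicate 1. The 33-base exon, which lengthens an extracellular loop of the voltage sensor of the fourth repeat, was in 86.9% in replicate 2 and 87.6% in replicate 1. A 207-base form that contains the same 33 bases was counted apart, at 4.53% in replicate 2 and 1.09% in replicate 1. In the second table the 33-base exon reached 93.4% in replicate 2 and 95.8% in replicate 1.
Cacna1c 75-base exon, chr6:118715903-118715977, minus strand: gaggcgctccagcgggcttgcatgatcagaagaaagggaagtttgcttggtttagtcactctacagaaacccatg
Cacna1c 33-base exon, chr6:118630399-118630431, minus strand: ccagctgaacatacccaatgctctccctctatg

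**Figure D2:**
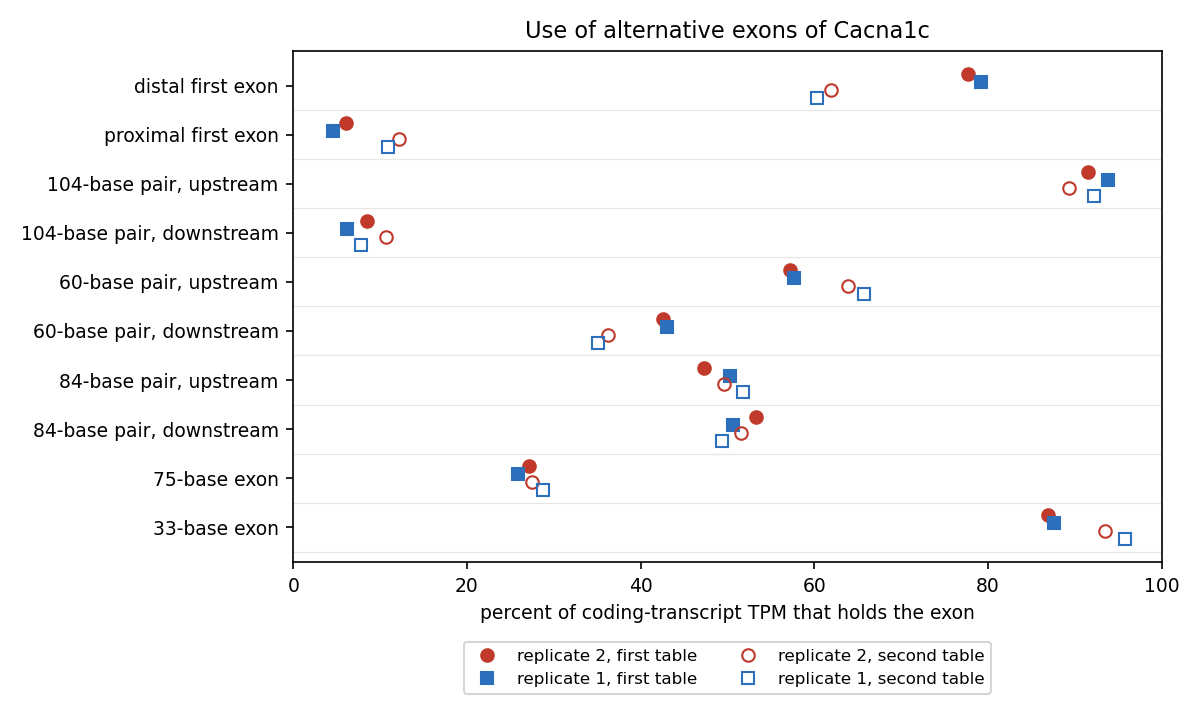
Percent of the coding Cacna1c TPM on transcripts that hold each exon, with replicate 2 as circles and replicate 1 as squares, filled for the first transcript table and open for the second. The upstream 104-base exon and the 33-base exon lie at the right, between 86.9% and 95.8%, and the 60-base and 84-base pairs lie near the middle.

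Much of the Cacna1c level sat on transcripts annotated as non-coding. They took 45.4% of the gene's TPM in replicate 2 and 45.7% in replicate 1, while the second quantification gave 21.2% in replicate 2 and 18.1% in replicate 1. For comparison, 11110 nuclear coding genes averaged 1 TPM or more, and their median non-coding share was 5.28%, with a 90th percentile of 42.6%. Counted in reads, the share was 10.8% in replicate 2 and 10.5% in replicate 1, since TPM gives a short transcript more weight per read than a long one.

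The largest part was Cacna1c-218, of 954 bases. It was at 25.2 TPM in replicate 2, between deposited bounds of 22.4 and 27.5 TPM, and at 26.3 TPM in replicate 1, between bounds of 23.4 and 28.8 TPM. Its 4 exons begin at the distal first exon and include 3 that lie within exons of coding transcripts, and it ends in an exon of its own of 209 bases (chr6:118946163-118946371). In the second table Cacna1c-218 was at 9.03 TPM in replicate 2 and 8.45 TPM in replicate 1, so the tables differed far more than the libraries. Cacna1c-223, of 2374 bases, was at 7.88 TPM in replicate 2 and 8.58 TPM in replicate 1 of the first table, and in the second it made up 0.646% of the gene in replicate 2 and 0.580% in replicate 1. On coding transcripts alone, Cacna1c was at 42.6 TPM in replicate 2 and 43.9 TPM in replicate 1, and in the second table at 48.4 TPM in replicate 2 and 50.4 TPM in replicate 1. The coding level was thus closer between the tables than the gene level, which was 61.4 TPM in replicate 2 and 61.5 TPM in replicate 1 of the second table.

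A leading transcript annotated as non-coding was found in the first table for 6.66% of those 11110 genes, Cacna1c and Cacna1s among them. Cacnb2 had non-coding shares of 33.0% in replicate 2 and 41.9% in replicate 1, mostly on retained introns. Cacna2d1 stood lower, at 8.23% in replicate 2 and 9.08% in replicate 1. Both Rrad transcripts are annotated as coding. Total RNA includes unspliced and partly spliced molecules, and their part in these shares was not tested.

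**Figure D3:**
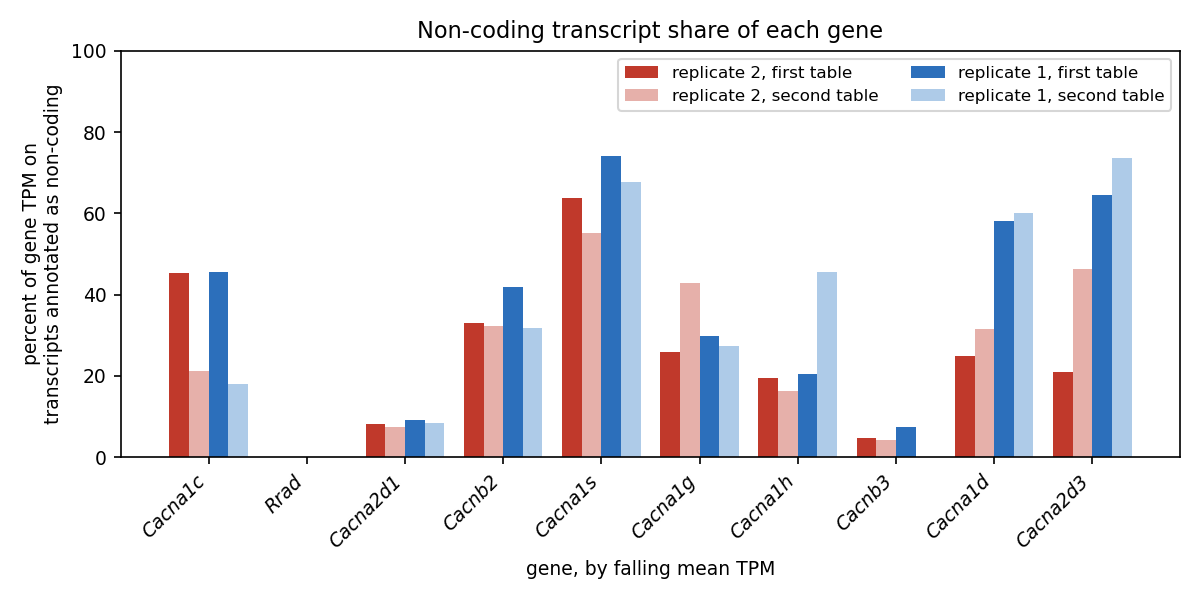
Percent of each gene's TPM on transcripts annotated as non-coding, with genes ordered by falling mean TPM, replicate 2 in reds and replicate 1 in blues, and the second table in the paler shade. Cacna1c has the widest gap between tables among the genes above 10 TPM, at 45.4% against 21.2% in replicate 2, and Cacna1d and Cacna2d3 differ most between libraries in the first table.

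Cacna1s encodes the L-type pore of skeletal muscle, where it acts as the voltage sensor of contraction. It was at 6.81 TPM in replicate 2 and 6.59 TPM in replicate 1, with Cacna1c 11.5 times higher in replicate 2 and 12.3 times higher in replicate 1. Among 8 markers of skeletal muscle, Ckm and Acta1, which heart muscle also expresses, were above 100 TPM in both libraries. Mylpf was at 0.67 TPM in replicate 2 and 1.51 TPM in replicate 1, Tnni2 at 0.48 TPM in replicate 2 and 0.72 TPM in replicate 1, and Tnnt3 at 0.18 TPM in replicate 2 and 0.15 TPM in replicate 1. Myh2 and Myh4 had 0 counts in the gene table of both libraries and Myh1 had about 1 count in replicate 1 alone. In the second table Myh1, the highest of these 3, was at 0.178 TPM in replicate 2 and 0.358 TPM in replicate 1. Transcripts annotated as non-coding took 63.8% of the Cacna1s TPM in replicate 2 and 74.0% in replicate 1, but 22.2% of its expected counts in replicate 2 and 31.0% in replicate 1. Its coding level was 2.47 TPM in replicate 2 and 1.71 TPM in replicate 1. That of Cacna1c was 42.6 TPM in replicate 2 and 43.9 TPM in replicate 1, a wider gap than with all transcripts counted. The processed transcript Cacna1s-203, of 1001 bases, held 46.6% of TPM in replicate 2 and 45.6% in replicate 1, and a mean of 19.1% of expected counts. The leading coding transcript, Cacna1s-206, held 70.9% of coding TPM in replicate 2 and 70.2% in replicate 1. It is annotated from inside the gene, beyond 5 coding exons of the full-length Cacna1s-201. Its coding sequence begins at the first base of its first exon, within a 206-base exon of the other coding transcripts. Whether this model is complete was not tested.

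Cacna1d, an L-type pore that opens at more negative voltages and serves pacemaker cells, was at 0.56 TPM in replicate 2 and 0.80 TPM in replicate 1, on 120 counts in replicate 2 and 127 in replicate 1. At this depth its transcript shares were unstable. Cacna1d-209 held 32.1% of the gene in replicate 2 and 0 in replicate 1. Dcp1a, which overlaps Cacna1d on the opposite strand, was at 3.99 TPM in replicate 2 and 3.58 TPM in replicate 1, and whether the counting used strand is not given in the sources used here.

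The T-type genes were close to each other. Cacna1g was at 2.56 TPM in replicate 2 and 3.51 TPM in replicate 1, and Cacna1h at 2.10 TPM in replicate 2 and 2.70 TPM in replicate 1. Each was lower in replicate 2, and the ranges of the 2 genes overlapped. Cacna1g held 52.5% of T-type TPM in replicate 2 and 56.5% in replicate 1. The second quantification gave 54.9% for replicate 2 and 46.1% for replicate 1. The first table placed 80.6% of Cacna1h on Cacna1h-205 in replicate 2 and 79.6% in replicate 1. The second table placed 58.2% there in replicate 2 and 9.92% in replicate 1, and moved 44.4% to Cacna1h-201 in replicate 1, so the division among Cacna1h transcripts was not resolved. The pacemaker marker Hcn4 was at 2.49 TPM in replicate 2 and 2.74 TPM in replicate 1, in the range of these genes. The pacemaker marker Tbx3 was above them, at 5.01 TPM in replicate 2 and 4.39 TPM in replicate 1. Of 6 atrial markers Bmp10 differed most, at 1.55 TPM in replicate 2 and 18.5 TPM in replicate 1, far more than the T-type genes. Sln was at 25.3 TPM in replicate 2 and 34.6 TPM in replicate 1. Nr2f2 alone went the other way, at 5.93 TPM in replicate 2 and 5.47 TPM in replicate 1. The part of atrial tissue in the T-type values was not tested.

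Among the beta subunits, Cacnb2, the main cardiac form, was at 26.4 TPM in replicate 2 and 32.8 TPM in replicate 1 (29.6 ± 4.53, SD, n = 2). It held 86.8% of beta subunit TPM in replicate 2 and 90.2% in replicate 1. Replicate 2 was the lower library, and Cacna1c exceeded Cacnb2 by 2.95 times in replicate 2 and 2.46 times in replicate 1. On coding transcripts alone Cacnb2 was at 17.7 TPM in replicate 2 and 19.1 TPM in replicate 1.

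Alternative first exons give beta2 proteins different amino termini, which set how the subunit is anchored at the membrane. The first coding exons of the 2 leading coding transcripts are printed for that reason, with the start codon in capitals.
Cacnb2-203, chr2:14604451-14604558, plus strand: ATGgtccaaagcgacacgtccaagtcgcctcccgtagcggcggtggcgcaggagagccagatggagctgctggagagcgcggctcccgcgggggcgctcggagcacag
Cacnb2-214, chr2:14824256-14824306, plus strand: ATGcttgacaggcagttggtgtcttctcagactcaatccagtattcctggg

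The first exon of Cacnb2-203 led in both libraries. Coding transcripts from it held 66.2% of coding Cacnb2 TPM in replicate 2 and 80.0% in replicate 1 (73.1% ± 9.75, SD, n = 2). Those from the first exon of Cacnb2-214 held 27.0% in replicate 2 and 18.4% in replicate 1. The second table kept the order in each library, with the Cacnb2-203 exon at 60.8% in replicate 2 and 68.5% in replicate 1 and the Cacnb2-214 exon at 18.8% in replicate 2 and 28.9% in replicate 1. The second table thus moved the Cacnb2-214 share the other way between libraries, so no difference between libraries can be read from it. Cacnb2-215, a retained-intron transcript of 1052 bases, was at 6.33 TPM in replicate 2 and 10.5 TPM in replicate 1, with deposited bounds of 4.66 to 7.77 TPM in replicate 2 and of 8.65 to 12.3 TPM in replicate 1 that did not overlap.

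Cacnb3, a beta subunit best known from neurons and smooth muscle, was at 0.88 TPM in replicate 2 and 1.07 TPM in replicate 1. Its counts were 69 in replicate 2 and 76 in replicate 1. The smooth muscle and pericyte markers summed to 265 TPM in replicate 2 and 295 TPM in replicate 1, and the neuron and Schwann cell markers to 2.33 TPM in replicate 2 and 2.20 TPM in replicate 1.

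Cacna2d1, the alpha2delta subunit of heart and skeletal muscle and the binding site of gabapentin, was at 34.2 TPM in replicate 2 and 35.2 TPM in replicate 1 (34.7 ± 0.764, SD, n = 2). It held 89.7% of alpha2delta TPM in replicate 2 and 84.6% in replicate 1. Cacna1c exceeded it by 2.28 times in replicate 2 and 2.30 times in replicate 1 in the gene table, and in the second by 1.68 times in replicate 2 and 1.63 times in replicate 1. In the first table Cacna2d1-202 led, with 56.0% of the gene in replicate 2 and 54.5% in replicate 1. The second quantification gave it 36.1% in replicate 2 and 29.1% in replicate 1. There Cacna2d1-205 was at 24.1% in replicate 2 and 31.4% in replicate 1, so the order of the 2 transcripts reversed in replicate 1.

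Coding Cacna2d1 transcripts differ in a central stretch. An exon of 72 bases can lose its first 15 bases by a later acceptor, and the transcripts with the shorter form had the same summed share as those with a separate 21-base exon. The sequences show both, with the 15 optional bases in capitals.
Cacna2d1 72-base exon, chr5:16326312-16326383, plus strand: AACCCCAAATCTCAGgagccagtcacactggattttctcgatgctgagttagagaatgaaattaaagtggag
Cacna2d1 21-base exon, chr5:16341990-16342010, plus strand: caaaaaagggaaaaatgaagg

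The 72-base form was in 75.8% of the TPM of coding Cacna2d1 transcripts that span it in replicate 2 and 77.7% in replicate 1. The 21-base exon was in 24.2% in replicate 2 and 22.3% in replicate 1, and in the second table in 26.9% in replicate 2 and 26.7% in replicate 1. These shares differed little between libraries and between tables. By expected counts the 21-base exon stood lower, at 14.5% in replicate 2 and 13.2% in replicate 1.

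Cacna2d3, an alpha2delta subunit best known from neurons, was at 0.25 TPM in replicate 2 and 0.44 TPM in replicate 1, on 20 counts in replicate 2 and 28 in replicate 1. Lrtm1, which lies within the span of Cacna2d3 on the opposite strand, was at 88.1 TPM in replicate 2 and 94.1 TPM in replicate 1. The low Cacna2d3 value thus sits in a locus with a strongly expressed neighbour, and the part of its reads in that value was not tested.

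Rrad (mm10 chr8:104628070-104631327, minus strand) stood apart from the channel genes in its spread. It was at 86.0 TPM in replicate 2 and 43.5 TPM in replicate 1 (64.7 ± 30.1, SD, n = 2), on 3665 counts in replicate 2 and 1868 in replicate 1. The second table gave 77.3 TPM in replicate 2 and 39.2 TPM in replicate 1. Replicate 2 was the higher library in both. With all transcripts counted, Rrad was 1.10 times as high as Cacna1c in replicate 2 and 0.538 times as high in replicate 1. On coding transcripts alone Cacna1c was at 42.6 TPM in replicate 2 and 43.9 TPM in replicate 1 of the first table. All Rrad transcripts are coding, so Rrad was well above coding Cacna1c in replicate 2 and close to it in replicate 1. In the second table coding Cacna1c was at 48.4 TPM in replicate 2 and 50.4 TPM in replicate 1. There Rrad was above it in replicate 2 and below it in replicate 1.

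With counts scaled by the trimmed mean of M-values (TMM), Rrad was 2.16-fold higher in replicate 2 than in replicate 1, a log2 ratio of 1.11 with a 95% counting interval of 1.03 to 1.19. Of the 7 genes above 1 TPM, 1 was higher in replicate 2 by 2-fold or more and 0 were lower by as much. Over all 12189 genes at that level, 0.533% passed 2-fold upward and 1.13% downward in replicate 2, 1.67% in either direction. Over the scalings and quantifications tried, the Rrad log2 ratio lay between 0.98 and 1.20, and it missed the 2-fold mark with the ratio of deposited TPM, at 0.98. Markers of some other cells moved between these libraries too. The adipocyte, atrial, macrophage and red cell sums were lower in replicate 2, where Rrad was higher. Of the white adipocyte markers 4 of 4 above 1 TPM were 2-fold lower in replicate 2, and 1 of 6 atrial markers was. Macrophage markers summed to 74.4 TPM in replicate 2 and 103 TPM in replicate 1, and red cell markers to 6791 TPM in replicate 2 and 10470 TPM in replicate 1. Other sums moved less, with endothelial markers at 128 TPM in replicate 2 and 130 TPM in replicate 1. Fibroblast markers summed to 191 TPM in replicate 2 and 210 TPM in replicate 1. The part of any of these cells in the Rrad value was not tested. The antisense gene Gm33023, which overlaps Rrad, was at 0.39 TPM in replicate 2 and 0.37 TPM in replicate 1.

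**Figure D4:**
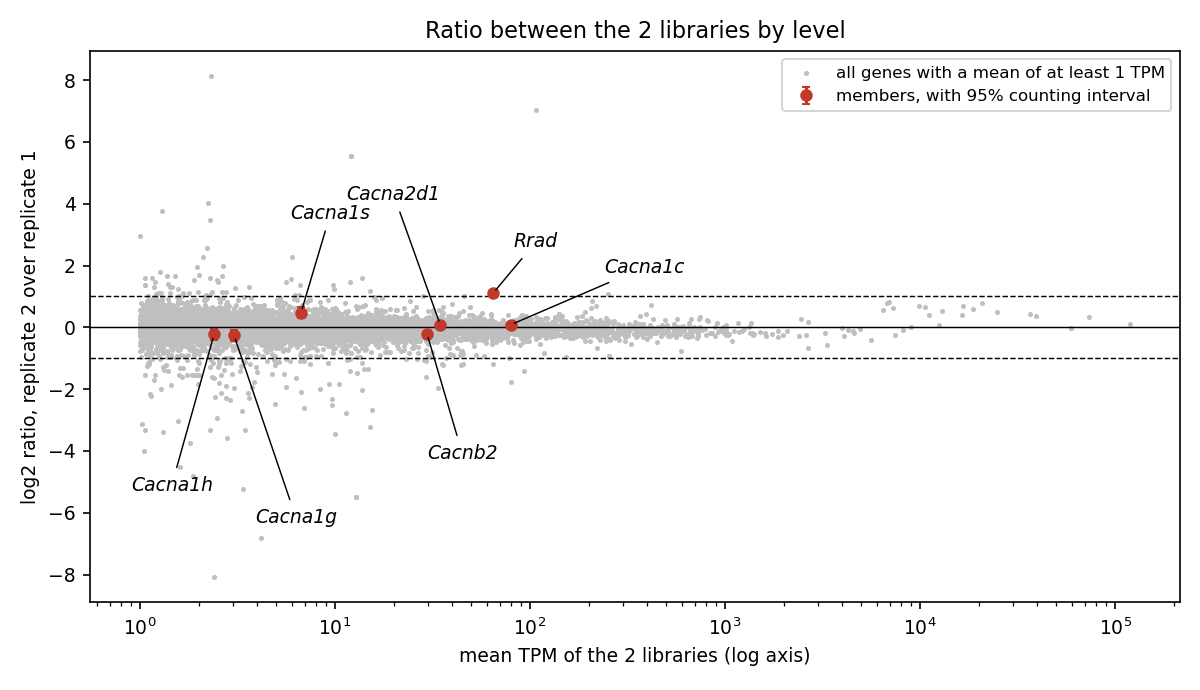
Log2 ratio of TMM-scaled counts, replicate 2 over replicate 1, against the mean TPM on a log axis, for 12189 genes in grey and 7 of the described genes in red with 95% counting intervals. Dashed lines mark 2-fold, and Rrad, at 1.11, is the only red point beyond them.

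The channel genes differed less between libraries. The log2 ratio was 0.48 for Cacna1s, 0.08 for Cacna1c and 0.08 for Cacna2d1, and it was -0.20 for Cacnb2, -0.23 for Cacna1h and -0.26 for Cacna1g. An exact conditional binomial test, two-sided, with Benjamini-Hochberg adjustment over all 12189 genes, compares these libraries and not conditions. It allows for counting error only, not for spread between samples, and passes small differences more easily where counts are high. By that test 4 of the 7 genes were higher in replicate 2 and 3 were lower, against 10.7% higher and 15.9% lower of all genes. Rrad had an adjusted p of 1.1e-168 in this exact test, Cacnb2 of 1.8e-05, Cacna1s of 7.5e-06, Cacna1c of 5.4e-05, Cacna2d1 of 0.015, Cacna1g of 0.016 and Cacna1h of 0.048. The sign of Cacna1c held under each scaling of the counts and turned to -0.05 with the ratio of deposited TPM. That of Cacna2d1 turned to -0.04 with the deposited TPM and was at -0.00047 with total counts. Cacna1s differed by counts and hardly by TPM, where its log2 ratio was 0.05. The median absolute log2 ratio was 0.229 over the 7 genes and 0.124 over all genes.

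The annotation of Rrad has 2 coding transcripts. Rrad-201 held 92.3% of the gene's TPM in replicate 2 and 92.5% in replicate 1, and 100% in both libraries of the second table. Rrad-202, of 435 bases against 1577 for Rrad-201, has a shorter first coding exon that lacks the last 65 bases. Those bases are printed as the part of that exon annotated in Rrad-201 alone, and the transcripts differ in length by far more. Whether the Rrad-202 model is complete was not tested, so no change of reading frame is read from it.
Rrad-201 bases left out of Rrad-202, chr8:104630547-104630611, minus strand: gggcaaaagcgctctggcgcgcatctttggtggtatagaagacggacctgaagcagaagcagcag

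Rrad-202 was at 7.66% in replicate 2 and 7.5% in replicate 1 in the first table and at 0 in the second. By expected counts it held 1.85% in replicate 2 and 1.81% in replicate 1. The higher Rrad level of replicate 2 came with a like division between transcripts.

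Of 17 further calcium channel genes, 3 reached a mean of 1 TPM. Cacna2d2, another alpha2delta subunit, was at 3.65 TPM in replicate 2 and 5.95 TPM in replicate 1, a log2 ratio of -0.53 (adjusted p = 4.7e-09 by the exact binomial test). Cacnb1, the beta subunit of skeletal muscle, was at 3.0 TPM in replicate 2 and 2.38 TPM in replicate 1, and Cacng7, of the gamma subunit family, at 1.60 TPM in replicate 2 and 1.86 TPM in replicate 1. Cacng2 and Cacng3 had 0 counts in the gene table of both libraries, which allows up to 3 counts in each. The second table put Cacng2 at 0.149 TPM in replicate 2 and 0.0912 TPM in replicate 1, and Cacng3 at 0 in replicate 2 and 0.0120 TPM in replicate 1. Among the RGK relatives, Rem1 was at 1.79 TPM in replicate 2 and 1.88 TPM in replicate 1, and Gem at 0.75 TPM in replicate 2 and 1.07 TPM in replicate 1, while Rem2 had 0 counts in the gene table and 0 TPM in the second table in both libraries. Rrad was 48.0 times as high as Rem1 in replicate 2 and 23.1 times as high in replicate 1.

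Of 18 listed genes for proteins that bind or modify the channel, 14 reached 1 TPM and 0 differed 2-fold in either direction, against 1.67% of all genes. By the binomial test 1 was higher and 6 were lower in replicate 2, against 10.7% higher and 15.9% lower of all genes. The highest were Sorbs2, a scaffold of the muscle Z-disc, at 261 TPM in replicate 2 and 229 TPM in replicate 1, and Jph2, which holds the surface membrane close to the calcium store, at 150 TPM in replicate 2 and 162 TPM in replicate 1. Prkaca, the catalytic subunit of protein kinase A, was at 122 TPM in replicate 2 and 140 TPM in replicate 1. Nedd4, a ubiquitin ligase, was at 123 TPM in replicate 2 and 139 TPM in replicate 1. Ahnak, a giant scaffold that binds beta subunits, was at 110 TPM in replicate 2 and 137 TPM in replicate 1, and Fgf13, which modulates sodium channels, at 40.6 TPM in replicate 2 and 50.8 TPM in replicate 1. The 4 genes Stac, Stac2, Stac3 and Akap5 stayed under 1 TPM. The median log2 ratio of the partners was -0.05, against -0.02 over all genes.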

How the data were processed

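Total RNA from heart was sequenced in 2 libraries of 1 group, with an implied read length of 100 bases. The authors deposited a gene table and a transcript table with expected counts and TPM, quantified from transcriptome alignments on mm10 with GENCODE M21, per the deposited file lists. A second deposited transcript table with estimated counts and TPM was derived from the reads. Aligner, quantifier and strand setting are not given in the sources used here. The deposited TPM were used as levels. The 96 spike-ins and 26249 other entries were left out.

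Expected counts were rounded, scaled by TMM (edgeR 4.0.16, R 4.3.3) and compared as log2 ratios with a prior count of 2. Intervals are exact (Clopper-Pearson, 95%) and cover counting error only. With 1 group there was no contrast for a quasi-likelihood test, so the exact conditional binomial test (scipy 1.17.1) was used over genes averaging 1 TPM or more, at a Benjamini-Hochberg threshold of 0.05. Alternatives included DESeq2 1.42.0 size factors, total counts and spike-ins. Shares by exon summed the TPM of coding transcripts that span it. The ratio, the interval and the binomial test were tried on simulated counts with counting error only, scaled by total counts. Shares, sequences and the comparison of tables were not part of that trial. All 10 chosen genes are named. Of other lists, up to 6 genes of highest mean TPM were to be named, besides markers, genes that overlap a member and the partners under 1 TPM, which were chosen after their values were seen. Genes and lists were chosen with earlier results of these data known.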

Additional observations from a re-analysis of the deposited data

How the results depend on the processing

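The second table moved the L-type share of alpha1 TPM to 89.6%, the Cacna1c distal first exon to 61.1% and the upstream 104-base exon to 90.8%, and shares of expected counts moved the distal exon to 81.9%. Against 65 genes at least 2-fold higher and 138 lower in replicate 2, there were 1273 and 737 with no filter on TPM, and 20 and 49 with a mean of at least 5 TPM. The ratio of deposited TPM gave 234 lower, and with it 0 of the described genes were 2-fold apart, against 1. By the binomial test Cacna1c and Cacna2d1 were higher in replicate 2, and these values changed sign. With the ratio of deposited TPM the log2 ratio was -0.0514 for Cacna1c and -0.0449 for Cacna2d1, and with total counts it was -0.00047 for Cacna2d1. Leaving out either replicate left single-library values: the L-type share ranged from 92.4% to 93.5%, the Cacnb2 share of beta subunits from 86.8% to 90.2%, the Cacna2d1 share of alpha2delta from 84.6% to 89.7%, the distal exon from 77.7% to 79.2% and the upstream 104-base exon from 91.5% to 93.8%. It left no ratio between libraries. No paired analysis was possible because there was 1 group. Median shifts of all genes under the scalings ran from -0.096 with total counts to 0.075 with spike-ins on the log2 scale. Genes under 1 TPM rest on at most 127 counts a library, which limits their transcript shares. Where the tables differ, the cause was not tested.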
